A study of Danio rerio with 16 samples.

Results

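The hmx genes (H6 family homeobox genes) encode transcription factors with a homeodomain of the NK-like class. Zebrafish carry 5 of them under the symbols hmx1, hmx2, hmx3a, hmx3b and hmx4, and these 5 were taken by symbol from the 32513 rows of the expression table. The family was chosen by the measured values of hmx4, which had the smallest p among the genes higher in exposed embryos at 48 h post fertilization (hpf). RFR against control at 48 hpf is therefore given as a description, with no test, for every member.

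Whole zebrafish (Danio rerio) embryos, called 5G in the labels and RFR here, received radiofrequency radiation of 3.5 GHz at about 30 dBm between 6 and 48 hpf. They were collected at 120 hpf, 72 h after the exposure had ended, or at 48 hpf, and unexposed controls were collected at the same stages. Each of the 4 groups (RFR 120 hpf, control 120 hpf, RFR 48 hpf and control 48 hpf) has 4 libraries of total RNA. The labels give no strain, no number of animals per library and no clutch. The p-values therefore rest on how far these libraries differ, and that spread may be technical only.

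Homeodomain proteins bind DNA and turn developmental genes on or off. In the mouse, Hmx2 and Hmx3 are needed for the vestibular part of the inner ear and act together in the hypothalamus. In zebrafish, hmx2 and hmx3a are expressed in the ear, the lateral line and the nervous system, and hmx3a is known from ear and spinal interneuron development. The eye and sensory ganglia are sites of hmx1, whose human counterpart is mutated in a disorder of the eye and outer ear. Zebrafish hmx4, also named soho (sensory organ homeobox), is expressed in eye and ear, and the table annotates it with regulation of retinoic acid synthesis. By RefSeq's annotation of the GRCz12tu assembly, consulted for gene names and gene order alone, hmx4 lies next to hmx1 and hmx2 next to hmx3a, with no other annotated gene between the members of either pair, while hmx3b stands alone between bub3 and acadsb.

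Between 39603976 and 49232542 reads per library remained after the authors' filter, and 66.2 to 71.8% of them mapped. The mapped share differed by stage, at 66.2 to 67.6% in 120 hpf libraries and 69.4 to 71.8% in 48 hpf libraries. Its part in the comparisons between stages was not tested. Control 120 hpf replicate 1 had an rRNA share of 3.2%, against 0.15 to 0.3% in the other libraries. Raw totals were 47.48 M reads in every replicate 1 to 3 and differed in every replicate 4. The fitted differences of the tested members and the counts of genes called were therefore also computed on replicates 1 to 3. The same was done for the counts of listed genes with non-overlapping RFR and control groups at the earlier stage. Other results are given with all libraries. Defining markers of the ear (otomp, stm, oc90, tecta, otog), retina (rx1, rx2, atoh7, crx), sensory ganglia, hypothalamus and spinal interneurons were above 0 in each group, as were lens, muscle and liver markers, while the blood marker hbbe3 was at 0 in some 120 hpf libraries of both treatments. In bulk RNA, a change in the number of hmx-expressing cells and a change in hmx RNA per cell cannot be told apart.

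Levels are given in FPKM (fragments per kilobase of transcript, scaled to the mapped fragments of the library), a unit that allows for transcript length, so that levels of different genes can be set side by side. Differences are taken between means of log2(FPKM + 0.5), where the added 0.5 shrinks the differences of weakly expressed genes. A gene was tested when it reached 0.5 FPKM in at least 4 libraries, which 23026 rows did, hmx4, hmx1, hmx3a and hmx2 among them. The fifth member, hmx3b, reached 0.5 FPKM in 2 libraries and was left out of the fit.

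**Figure D1:**
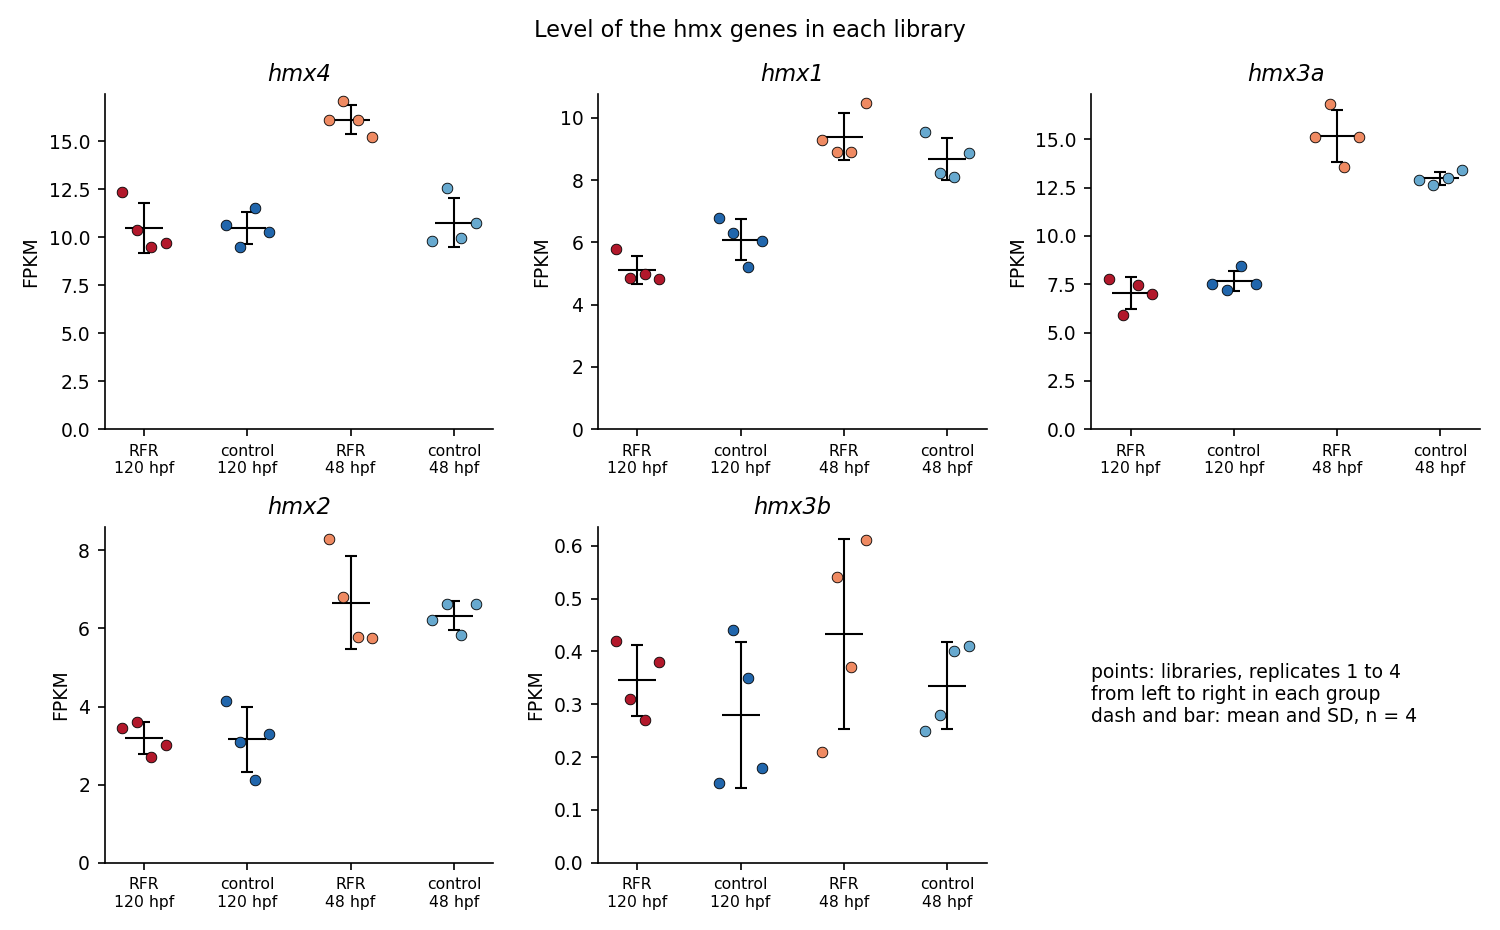
Level of each hmx gene (y axis, FPKM, from 0) in the 16 libraries by group (x axis); points are libraries and the dash and bar are the mean and SD of 4. The 4 RFR 48 hpf libraries of hmx4 lie between 15.22 and 17.08 FPKM, above all 12 others, while hmx1, hmx3a and hmx2 are lower at 120 hpf than at 48 hpf in both treatments.

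The gene on which the choice rests is hmx4. It stood at 16.08, 17.08, 16.08 and 15.22 FPKM in RFR 48 hpf replicates 1 to 4, against 9.82, 12.57, 9.93 and 10.71 FPKM in the 48 hpf controls. The groups did not overlap, and the lowest RFR library lay above the highest control. Means were 16.1 ± 0.760 FPKM in RFR and 10.8 ± 1.27 FPKM in control embryos (SD, n = 4 each), a ratio of 1.498. The log2 difference was 0.57 ± 0.096 (SE), and 1.32% of the genes tested had a larger one. Other settings gave 0.51 (median-ratio scaling) to 0.59 (replicates 1 to 3 alone). Among genes with a symbol, the next in the ranking that chose hmx4 were sirt3 (log2 difference 0.61 ± 0.116, SE) and otx5 (0.83 ± 0.161).

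RFR 48 hpf replicate 1 stands apart from the other exposed libraries in this series. Over all genes tested, limma called 389 genes at 48 hpf without it and 1 with it. That 1 gene was lower in RFR, so it was not hmx4. For hmx4, RFR 48 hpf replicate 1, at 16.08 FPKM, lay within the range of the other exposed libraries. The log2 difference of hmx4 was 0.57 without RFR 48 hpf replicate 1, and between 0.53 and 0.64 whichever of the 8 libraries was left out. A small spread was part of what chose hmx4, so these values are a description. For otx5, a homeobox gene of the retina and pineal gland, levels ranged from 23.56 to 40.32 FPKM in RFR and from 15.29 to 25.95 FPKM in control embryos at 48 hpf, so that its groups overlapped.

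Of the other members, hmx3a also had groups that did not overlap at 48 hpf. Its levels were 15.11, 16.82, 13.54 and 15.12 FPKM in RFR replicates 1 to 4, against 12.87, 12.61, 12.99 and 13.43 FPKM in controls. The lowest RFR library was just above the highest control, and the controls lay close together. The log2 difference was 0.21 ± 0.088 (SE), with 17.3% of the genes tested above it. Other settings gave 0.15 (median-ratio scaling) to 0.23 (replicates 1 to 3). With single libraries left out it was 0.16 to 0.26. The 2 members hmx4 and hmx3a are thus 2 of the 4 tested members without overlap and higher, where 3.0% of all genes tested had such groups. Because the choice of the family used this contrast, nothing is read from that count.

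The gene next to hmx4, hmx1, overlapped between the groups at 48 hpf. It stood at 9.29, 8.90, 8.91 and 10.49 FPKM in RFR replicates 1 to 4 and at 9.53, 8.23, 8.09 and 8.87 FPKM in controls. The log2 difference was 0.11 ± 0.093 (SE). It was 0.06 without RFR 48 hpf replicate 4, 0.05 under median-ratio scaling and 0.15 without control 48 hpf replicate 1. The median over all genes tested was 0.04, and 34.8% of them had a larger difference than hmx1. On the other side of hmx4 lies cpz, a carboxypeptidase gene, at 6.13 FPKM in RFR and 7.35 FPKM in control embryos (means of 4), a log2 difference of -0.25 ± 0.140 (SE).

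At hmx2 the groups overlapped too. It stood at 8.29, 6.81, 5.79 and 5.75 FPKM in RFR 48 hpf replicates 1 to 4, and at 6.22, 6.63, 5.84 and 6.62 FPKM in controls. RFR replicate 1 was the highest and replicate 4 the lowest of the 8 libraries. The log2 difference was 0.06 ± 0.152 (SE), and -0.05 without RFR 48 hpf replicate 1, which turned its direction. For hmx3b the levels were 0.21, 0.54, 0.37 and 0.61 FPKM in RFR and 0.25, 0.28, 0.40 and 0.41 FPKM in controls, all under 1 FPKM and overlapping. The row of hmx3b is a predicted transcript, and the table gives it an orthology term of another NK-like homeobox gene, whereas the 4 other members carry the term of the hmx type.

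**Figure D2:**
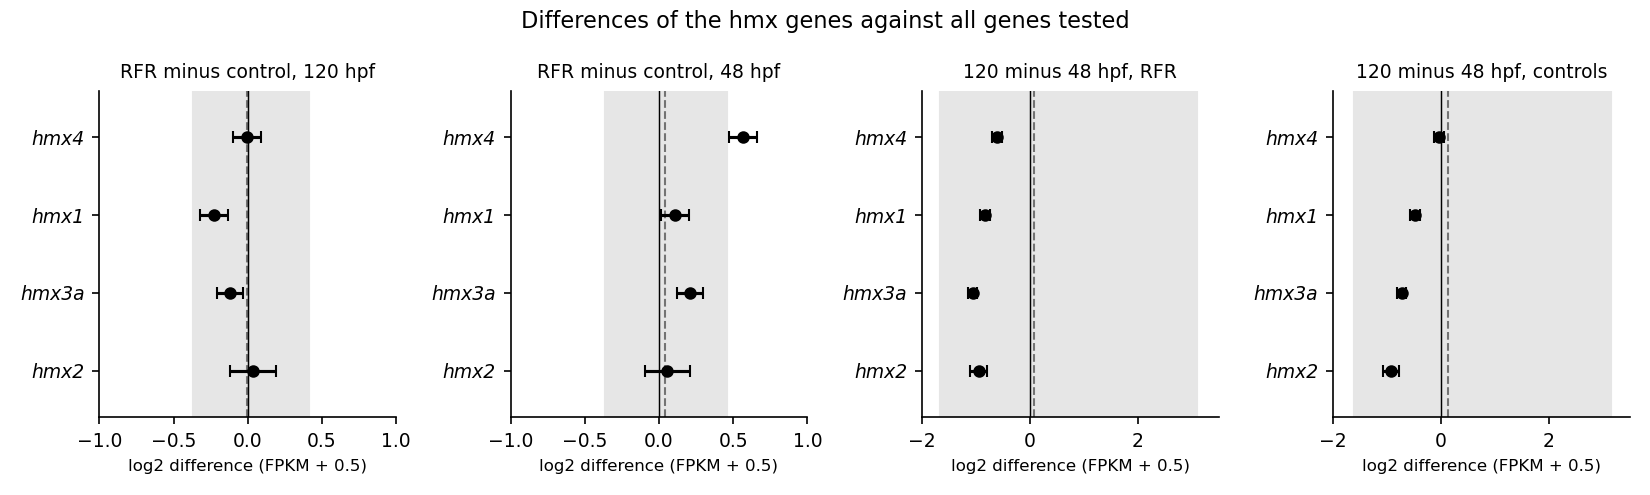
Log2 difference (x axis, log2(FPKM + 0.5) scale) of the 4 tested hmx genes (y axis) in 4 comparisons; points are limma estimates, bars are ± 1 SE, the grey band spans the central 95% of all genes tested and the dashed line is their median. At 48 hpf hmx4 lies outside the band at 0.57, and at 120 hpf it lies at -0.00 ± 0.096.

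At 120 hpf no hmx gene passed the test between RFR and control. The difference that chose hmx4 was not taken from the 120 hpf libraries. Their spread did enter its SE, because the fit pooled the spread over all groups. The limma SE, p and confidence interval at 120 hpf are therefore not independent of the choice. The exact permutation test used the 120 hpf libraries alone. Over all 23026 genes limma called 0 (0% of genes tested; 952 had an unadjusted p under 0.05, 4.13%). The level of hmx4 was 12.37, 10.36, 9.51 and 9.70 FPKM in RFR replicates 1 to 4, against 10.65, 9.50, 11.51 and 10.28 FPKM in controls. Both groups averaged 10.5 FPKM, with an SD of 1.31 in RFR and 0.835 in controls, and they overlapped over most of their range. The log2 difference was -0.00 ± 0.096 (SE; limma adjusted p = 1; two-sided exact permutation p = 0.971), with a 95% confidence interval of -0.21 to 0.20.

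The 120 hpf values of hmx1 lay lower in most RFR libraries. They were 5.78, 4.86, 4.99 and 4.82 FPKM in RFR replicates 1 to 4, against 6.79, 6.31, 5.21 and 6.03 FPKM in controls. Replicates 2 to 4 of RFR were below every control, while RFR replicate 1 lay above control replicate 3. The log2 difference was -0.23 ± 0.093 (SE; limma unadjusted p = 0.0260, adjusted p = 1), and the exact two-sided permutation test gave p = 0.0571, where the smallest p that 4 against 4 libraries allow is 0.0286. Within replicates 1 to 3 it was -0.21, and under quantile normalization -0.25. With single libraries left out it ran from -0.29, without control replicate 3, to -0.18, without control replicate 1, the library with the high rRNA share. Neither test was passed, and 92.8% of all genes had a higher value than hmx1.

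For hmx3a the levels at 120 hpf were 7.79, 5.91, 7.46 and 7.0 FPKM in RFR replicates 1 to 4 and 7.49, 7.21, 8.44 and 7.52 FPKM in controls. The groups overlapped, and the log2 difference was -0.12 ± 0.088 (SE; limma adjusted p = 1; exact permutation p = 0.314). It was -0.04 without RFR 120 hpf replicate 2, -0.08 without control 120 hpf replicate 3 and -0.17 without RFR 120 hpf replicate 1. The 95% confidence interval with all libraries was -0.31 to 0.07.

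For hmx2 the levels were 3.44, 3.61, 2.72 and 3.02 FPKM in RFR and 4.15, 3.09, 2.13 and 3.29 FPKM in controls at 120 hpf. The control libraries spanned the whole RFR range, and the log2 difference was 0.04 ± 0.152 (SE; limma adjusted p = 1; exact permutation p = 0.857). At hmx3b, 0.42, 0.31, 0.27 and 0.38 FPKM in RFR stood against 0.15, 0.44, 0.35 and 0.18 FPKM in controls (exact permutation p = 0.371). In a fit without the filter the log2 difference of hmx3b was 0.13 ± 0.150 (SE; limma adjusted p = 1).

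Without exposure hmx3a, hmx2 and hmx1 fell between the stages. All 3 had lower, non-overlapping levels at 120 hpf, where limma called 27.9% of all genes tested lower and 25.1% had non-overlapping lower groups. Levels of hmx3a averaged 7.67 ± 0.535 FPKM at 120 hpf and 13.0 ± 0.342 FPKM at 48 hpf (SD, n = 4 each; log2 difference -0.72 ± 0.088, SE; limma adjusted p = 1.96e-06). Levels of hmx2 averaged 3.17 ± 0.83 FPKM at 120 hpf and 6.33 ± 0.377 FPKM at 48 hpf (log2 difference -0.93 ± 0.152; limma adjusted p = 5e-05). For hmx1 the means were 6.09 ± 0.662 FPKM at 120 hpf and 8.68 ± 0.661 FPKM at 48 hpf (log2 difference -0.48 ± 0.093; limma adjusted p = 0.000241). Each of the 3 gave the smallest exact permutation p, 0.0286.

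The level of hmx4 averaged 10.5 FPKM at 120 hpf and 10.8 FPKM at 48 hpf in controls, and the groups overlapped. Its log2 difference was -0.03 ± 0.096 (SE). No test is given for hmx4 between stages, because the choice of the family used its 48 hpf libraries. The level of hmx3b was 0.280 ± 0.138 FPKM at 120 hpf and 0.335 ± 0.0819 FPKM at 48 hpf in controls (exact permutation p = 0.457).

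After exposure hmx3a, hmx2 and hmx1 fell too between the stages, where limma called 29.2% of all genes tested lower. The log2 differences, 120 minus 48 hpf in RFR, were -1.06 ± 0.088 for hmx3a, -0.95 ± 0.152 for hmx2 and -0.82 ± 0.093 for hmx1 (SE; limma adjusted p = 2.37e-08, 4.07e-05 and 9.12e-07). This comparison shares no library with the one in controls, but both use the spread pooled over all groups. Their limma SEs and p-values are therefore not independent. For hmx4 the means were 10.5 FPKM at 120 hpf and 16.1 FPKM at 48 hpf in RFR, a log2 difference of -0.60 ± 0.096 (SE), which holds the raised 48 hpf libraries. The RFR minus control difference at 120 hpf, less that at 48 hpf, was -0.57 ± 0.136 for hmx4, -0.34 ± 0.131 for hmx1, -0.33 ± 0.125 for hmx3a and -0.02 ± 0.215 for hmx2 (SE). These are descriptions, since they hold the contrast that chose the family, and limma called 0% of all genes for this difference (1575 genes, 6.84%, at an unadjusted p under 0.05).

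**Figure D3:**
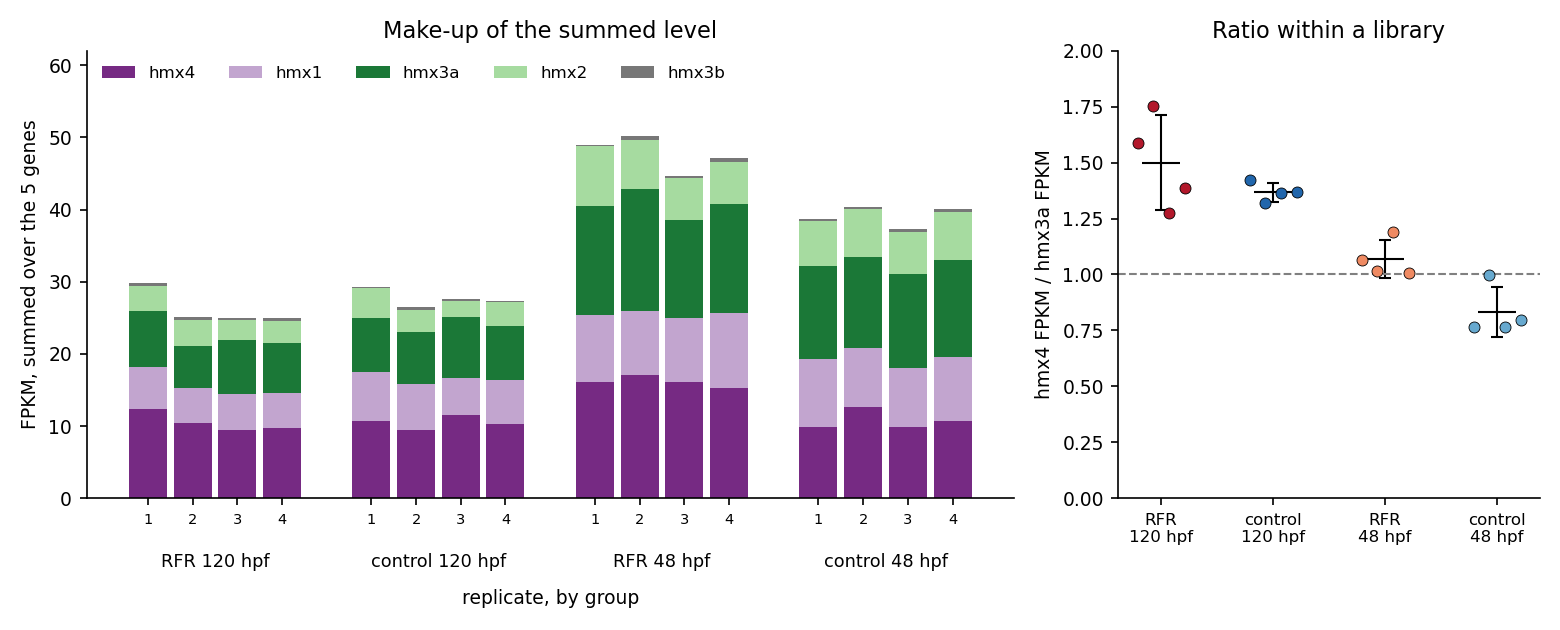
Left, FPKM summed over the 5 hmx genes (y axis, from 0) in each library, stacked by gene; right, the ratio of hmx4 to hmx3a FPKM within each library, with the mean and SD of 4 per group and a dashed line at 1. The ratio is 1.01 to 1.19 in RFR 48 hpf and 0.763 to 0.997 in control 48 hpf libraries, and 1.27 or more in every 120 hpf library.

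Summed over the family, the level at 120 hpf was 26.2 ± 2.41 FPKM in RFR and 27.7 ± 1.13 FPKM in controls (SD, n = 4 each). At 48 hpf it was 47.8 ± 2.38 FPKM in RFR and 39.1 ± 1.41 FPKM in controls (SD, n = 4 each). At 48 hpf the summed levels did not overlap, with 44.69 FPKM as the lowest in RFR and 40.32 as the highest in controls. The share of hmx4 in the sum was 39.98 ± 1.72% in RFR and 37.9 ± 2.63% in controls at 120 hpf. At 48 hpf it was 33.8 ± 1.65% in RFR and 27.5 ± 2.53% in controls, again without overlap. The 48 hpf sums and shares contain the hmx4 values that chose the family, so nothing is read from their separation.

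The order of the members differed between groups. At 48 hpf the place of hmx4 rests on the values that chose the family, so nothing is read from its change between RFR and control. In control 48 hpf libraries hmx3a was the highest in all 4, followed by hmx4, hmx1, hmx2 and hmx3b, and no neighbours in that order overlapped, though hmx4 reached 12.57 FPKM and the lowest hmx3a library was at 12.61. In RFR 48 hpf libraries hmx4 was above hmx3a in all 4, with ratios of 1.06, 1.02, 1.19 and 1.01. The ranges of these neighbours over libraries overlapped, and the ratio within a library was not tested. At 120 hpf hmx4 was the highest in all 8 libraries, at 1.500 ± 0.213 times hmx3a in RFR and 1.37 ± 0.0427 times in controls (SD, n = 4 each), and hmx3a, hmx1, hmx2 and hmx3b followed without overlap between neighbours in either group. For the neighbouring pair, the ratio of hmx3a to hmx2 within a library averaged 2.24 in RFR and 2.60 in controls at 120 hpf. At 48 hpf it averaged 2.32 in RFR and 2.06 in controls. Deviations from the group means correlated between members with r from -0.51 to 0.45 over the 10 pairs and 16 libraries, which share library and depth.

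Summed retina markers were higher at 48 hpf in 3 of the 4 RFR libraries than in every control. The 4 markers (rx1, rx2, atoh7 and crx), none of them at 0, summed to 62.29, 81.88, 80.03 and 86.64 FPKM in RFR replicates 1 to 4, against 43.81, 50.53, 54.61 and 66.09 FPKM in controls. RFR replicate 1 lay below control replicate 4, so the sums overlapped. Most of the sum was crx, a homeobox gene of photoreceptors, at 35.52 to 70.22 FPKM in RFR and 22.87 to 44.27 FPKM in controls, and each of the 4 overlapped between the groups when taken alone. The marker rx1, a homeobox gene of the eye field, ran the other way, at 4.77 to 8.31 FPKM in RFR and 6.71 to 12.53 FPKM in controls. Relative to the marker sum, hmx4 was at 25.8, 20.9, 20.1 and 17.6% in RFR replicates 1 to 4 and at 22.4, 24.9, 18.2 and 16.2% in controls, so that this ratio overlapped. The part of retinal tissue in the level of hmx4 was not tested. Ear markers summed to 54.23 to 68.84 FPKM in RFR and 49.15 to 69.29 FPKM in controls and overlapped, as did those of sensory ganglia (25.94 to 34.67 FPKM in RFR, 23.08 to 29.41 FPKM in controls), hypothalamus (146.23 to 176.06 FPKM in RFR, 132.64 to 149.05 FPKM in controls) and spinal interneurons (41.53 to 46.97 FPKM in RFR, 39.74 to 42.13 FPKM in controls). Taken alone, the hypothalamus marker otpa was higher without overlap at 48 hpf, at 89.1 to 105.03 FPKM in RFR and 76.36 to 86.59 FPKM in controls. So was the spinal interneuron marker evx2, at 9.71 to 10.51 FPKM in RFR and 8.55 to 9.32 FPKM in controls. The other markers of ear, sensory ganglia, hypothalamus and spinal interneurons each overlapped at 48 hpf. At 120 hpf the retina sums overlapped, at 53.43 to 63.42 FPKM in RFR and 59.39 to 66.12 FPKM in controls. Ear marker sums at 120 hpf were lower without overlap, at 67.25 to 77.61 FPKM in RFR and 80.36 to 85.5 FPKM in controls, and mostly from stm, an otolith gene. Levels of stm did not overlap, at 47.07 to 52.48 FPKM in RFR and 55.35 to 60.29 FPKM in controls. The other ear markers, otomp, oc90, tecta and otog, each overlapped between the groups. Lateral line sums (cldnb and atoh1a) were higher without overlap, at 42.03 to 47.65 FPKM in RFR and 25.45 to 38.48 FPKM in controls. That separation came from cldnb, a gene of the lateral line and skin. Its levels were 40.63 to 45.15 FPKM in RFR and 23.89 to 35.84 FPKM in controls. The other marker, atoh1a, overlapped, at 1.4 to 2.5 FPKM in RFR and 1.56 to 2.64 FPKM in controls. The share of all genes with non-overlapping groups at 120 hpf is not given here, so nothing is read from either separation. The part of these tissues in the 120 hpf values of the hmx genes was not tested.

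**Figure D4:**
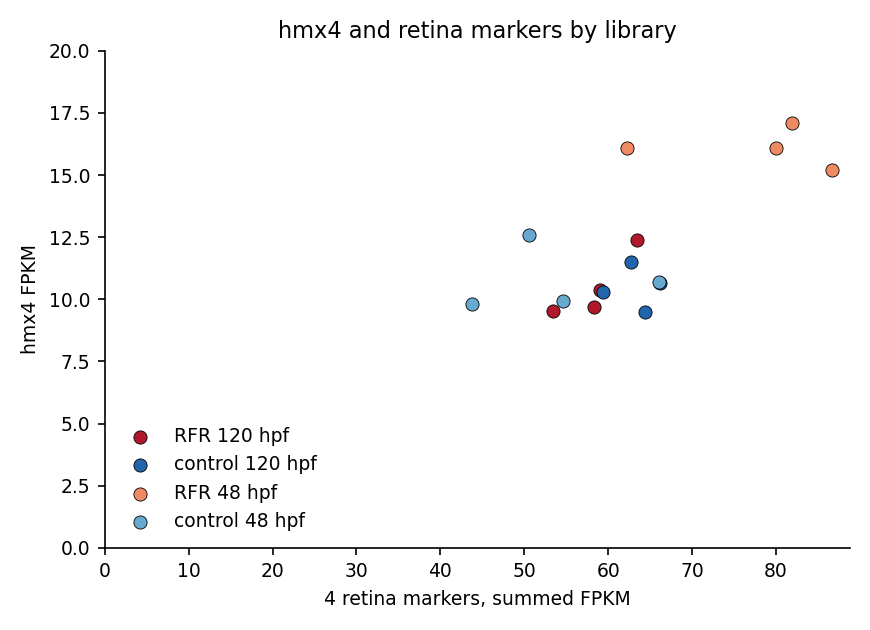
Level of hmx4 (y axis, FPKM) against the summed FPKM of 4 retina markers (x axis) in the 16 libraries, both from 0. The 4 RFR 48 hpf libraries lie at 15.22 or more on the y axis, above the other 12, and between 62.29 and 86.64 on the x axis, where the lowest of them lies among the other libraries.

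Genes that share tissues or pathways with the hmx family were counted in 6 lists. These lists were chosen with earlier results of these data known, so their shares at 48 hpf are descriptions only. At 48 hpf limma called 0 members of any list (0.00434% of all genes), so their groups are described by overlap. Of 43 eye and retina transcription factors tested, 10 were higher without overlap in RFR (23.3%, against 3.0% of all genes) and 0 lower, and 27 had an unadjusted p under 0.05 and a higher mean (7.30% of all genes). They included six6b, an eye field factor, at 18.5 ± 1.002 FPKM in RFR and 14.01 ± 1.40 FPKM in controls, and pax6b, a regulator of eye and brain development, at 22.0 ± 0.872 FPKM in RFR and 17.0 ± 1.99 FPKM in controls (SD, n = 4 each). On the log2 scale six6b differed by 0.39 ± 0.082 and pax6b by 0.37 ± 0.107 (SE). These 2 were named after their values were seen. Without RFR 48 hpf replicate 1 the count was 25 of 43 (58.1%, against 10.1% of all genes), with 2 lower, and on replicates 1 to 3 it was 17 (39.5%, against 7.63%).

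In the other lists, higher without overlap at 48 hpf were 8 of 42 spinal interneuron and sensory ganglion genes (19.05%), 4 of 32 hypothalamus and preoptic genes (12.5%), 4 of 58 other NK-like homeobox genes (6.90%), 2 of 47 ear and lateral line genes (4.26%) and 1 of 46 retinoic acid and Hedgehog genes (2.17%). Without RFR 48 hpf replicate 1 these counts were 17, 8, 7, 5 and 4 higher (10.1% of all genes) and 2, 1, 3, 6 and 2 lower (3.15% of all genes). For ear and lateral line genes, 6 of 47 were then lower (12.8%) and 5 higher. With all 8 libraries, lower without overlap was 1 ear and lateral line gene (1.27% of all genes) and 0 of each of the other 4 lists. The median log2 difference was 0.33 for eye and retina factors, 0.19 for the spinal and ganglion list and 0.06 for ear and lateral line genes, beside 0.04 over all genes. Retinoic acid and Hedgehog genes, which include the synthesis enzymes that the annotation of hmx4 refers to, had a median of -0.02. At 48 hpf 7.30% of all genes had a limma unadjusted p under 0.05 and a higher mean. That held for 16 of 42 spinal and ganglion, 7 of 32 hypothalamus and 8 of 58 NK-like homeobox genes. It also held for 9 of 47 ear and lateral line and 2 of 46 retinoic acid and Hedgehog genes. With a lower mean the counts were 0, 1, 2, 2 and 2 in that order.

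At 120 hpf no list member passed between RFR and control, and an unadjusted p under 0.05 (4.13% of all genes) was found for 4 of 47 ear and lateral line genes, 1 higher and 3 lower. It was found for 2 of 58 NK-like homeobox genes, 2 of 42 spinal and ganglion genes, 1 of 32 hypothalamus genes and 0 of the eye and retinoic acid lists. The member with the smallest p was cldnb, a tight junction gene of the lateral line and skin, at 42.9 ± 1.94 FPKM in RFR and 30.6 ± 5.13 FPKM in controls (SD, n = 4 each; limma adjusted p = 0.388). In control development, 47 of 58 NK-like homeobox genes fell and 3 rose (27.9% and 38.3% of all genes), with a median log2 difference of -0.91, beside 0.12 over all genes. Examples were dbx1a, a factor of neural progenitors, at 5.03 ± 0.895 FPKM at 120 hpf and 33.7 ± 7.62 FPKM at 48 hpf (limma adjusted p = 1.04e-08), and barx2, at 3.45 ± 0.551 FPKM at 120 hpf and 2.14 ± 0.0926 FPKM at 48 hpf (limma adjusted p = 0.00426). The fall of hmx2 (-0.93) was close to that median, and those of hmx3a (-0.72) and hmx1 (-0.48) were smaller.

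Among ear and lateral line genes 29 of 47 fell and 7 rose between the stages in controls, where 27.9% of all genes fell and 38.3% rose. The otolith matrix gene otomp rose, with 22.8 ± 3.004 FPKM at 120 hpf and 9.29 ± 1.79 FPKM at 48 hpf (limma adjusted p = 8.12e-07), whereas neurog1, a factor of sensory neuron precursors, fell to 3.63 ± 0.344 FPKM at 120 hpf, against 39.98 ± 7.19 FPKM at 48 hpf (limma adjusted p = 3.35e-11). Of 43 eye and retina factors 27 fell and 5 rose. The 42 spinal and ganglion genes had 22 falls and 13 rises, and the 46 retinoic acid and Hedgehog genes 27 and 9. The 32 hypothalamus genes had 10 falls and 13 rises, near the shares over all genes.

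The genes with the pattern most like that of each member were found by Pearson's r of log2(FPKM + 0.5) over the 16 libraries, among 18288 genes that carry a symbol and average 1 FPKM or more. The libraries fall into 4 groups, so a high r follows the differences between groups, and r is given as a measure of likeness only. For hmx4 the group that stood out was RFR 48 hpf, so genes found by likeness to it are high there by that search. For hmx4 they were foxp1b (r = 0.905), tbx2a (0.850) and brsk2b (0.850), a lower likeness than the closest genes of the other members reached. The forkhead gene foxp1b was at 21.6 ± 1.22 FPKM in RFR and 17.4 ± 0.958 FPKM in control embryos at 48 hpf. At 120 hpf it was at 15.6 ± 1.25 FPKM in RFR and 15.4 ± 1.26 FPKM in controls. The T-box gene tbx2a, a factor of eye and ear, was at 19.5 ± 0.838 FPKM in RFR and 15.5 ± 1.17 FPKM in control embryos at 48 hpf (SD, n = 4 each). For deviations from the group means the closest genes to hmx4 were en2b (0.840), pdgfaa (0.818) and tmem131l (0.817). The closest to hmx3a were otud5a (0.987), the axon growth gene gap43 (0.985) and soga3a (0.984), to hmx1 zgc:173619 (0.969), mlana (0.964) and bri3bp (0.961), and to hmx2 pak6b (0.968), chrna2a (0.965) and zgc:163121 (0.962).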

How the data were processed

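Expression was deposited by the authors as FPKM per gene, with 2 decimals, per the file headers. Read counts after filtering, percent of reads mapped, percent of rRNA and raw reads are the authors' deposited summaries. HISAT2, Bowtie2, DESeq2 and the GRCz11 build are listed, without versions or roles, per the submitters' processing notes. The sources used here do not give how FPKM were computed or how reads shared by family members were split. FPKM are not counts, so limma 3.58.1 (R 4.3.3) was fitted to log2(FPKM + 0.5) with a mean-variance trend, 4 group means and 12 residual degrees of freedom, for the 23026 genes that reached 0.5 FPKM in 4 libraries or more. Two-sided p-values were adjusted by Benjamini-Hochberg over all genes, and a gene was called under 0.05. The 13 exact permutation tests of members are unadjusted. The fit was tested on simulated data. Members, gene lists and settings were chosen with earlier results of these data known. Of 277 list entries, 269 matched by symbol, 7 by current RefSeq symbol and 1 not at all. The rule for named genes gave the members, their 3 closest genes and otx5. Per list it gave the 3 smallest p at 120 hpf and the 2 largest rises and 2 largest falls in control development, of which examples are given. Tissue markers, gene-order neighbours and sirt3, the next in the ranking, stand outside that rule. So do six6b and pax6b, named after their values were seen. Alternatives covered pseudocount, filter, scaling, replicate block, batch, groups fitted and each library left out. No sequences are used here. Results that need 1 withheld item are not reported here, and lists and marker sums were computed without it.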

Additional observations from a re-analysis of the deposited data

Results flagged for a closer look

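The RFR minus control difference of hmx1 had opposite signs at the stages. At 48 hpf all 4 RFR libraries lay above the control mean, with a log2 difference of 0.11, and at 120 hpf all 4 lay below it, with a log2 difference of -0.23. At 48 hpf the groups overlapped, and the value was 0.06 to 0.15 with single libraries left out. The differences of hmx3a also had opposite signs, 0.21 at 48 hpf and -0.12 at 120 hpf. The difference between the effects was not tested, because it holds the contrast that chose the family. None of the 20 sets of 4 libraries (5 members in 4 groups) held a library far from the other 3 by Dixon's criterion.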

How the results depend on the processing

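Of 368 values of the 4 tested members under other settings, 8 tested differences at 120 hpf changed sign. The other 360 kept their side of the threshold and direction or, untested, moved by less than the spread between replicates. Changes of sign were not counted for untested values. Some of these did change sign, such as hmx2 at 48 hpf, at -0.05 without RFR 48 hpf replicate 1. In control development hmx4 was at 0.04 without control 48 hpf replicate 2, against -0.03 with all libraries. RFR minus control of hmx4 at 120 hpf was 0.0100 after quantile normalization, 0.0211 on replicates 1 to 3, and -0.0827 to 0.0398 with single libraries left out; that of hmx2 was -0.11 to 0.16 with single libraries left out. The falls of hmx1, hmx2 and hmx3a between the stages passed under every setting run (highest limma adjusted p 0.00394 in controls and 0.000869 in RFR). Genes called at 48 hpf were 3 with a pseudocount of 0.1, 2 without a filter, 0 with the 2 groups alone and 1 to 389 with single libraries left out; at 120 hpf 4 without a filter and 0 to 0 with single libraries left out. For the difference of effects 1 gene was called with a pseudocount of 0.1, after quantile normalization and on replicates 1 to 3, and 0 to 1 with single libraries left out. The cause was not tested. With the replicate block 1 gene was called at 120 hpf, in place of 0, and no call of an hmx gene changed. Same-numbered libraries correlated in their deviations from the group means with r from -0.11 to 0.31 between RFR and control at 48 hpf and from 0.06 to 0.28 at 120 hpf, where 3 of 4 pairs were over 0.1. Replicate 4 was positive and best with its own number in all 4 comparisons (0.17 to 0.31). No comparison had all 4 pairs over 0.1, so the numbers were not taken as pairing, and partial sharing within a number was not tested. Between the stages in controls, 8811 genes were called higher and 6416 lower, against 6336 and 8906 after quantile normalization and 7991 and 7374 after median-ratio scaling; in RFR 8305 and 6727, against 6312 and 8821 after quantile normalization. The median of all genes moved from 0.12 to -0.14 in controls under quantile normalization, where hmx4 was at -0.09. Levels under 0.5 FPKM limit what can be said of hmx3b.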
